A study of Mus musculus with 16 samples.

Results

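FB3 is 1 of 10 fibroblast (FB) subclusters in the authors' annotation of single left ventricular cells from male mice in a pressure overload model. Its members were taken as every cell that the annotation calls FB3, which gave 313 of 1775 FB cells, or 17.6%, of 11492 cells in all. The mice belong to a TAC series (transverse aortic constriction, in which a band around the aorta makes the heart pump against a higher pressure), and they are grouped by week of disease: the 0w, 2w and 11w groups have 2 mice each, the 8w group 3 and the 5w group 7. Whether the 0w animals were operated on is not stated in the labels, nor are strain and age. Tissue slices were digested by 1 enzyme mix that enriches cardiomyocytes or by another that enriches the other cells, and RNA was counted as unique molecular identifiers (UMIs, 1 per captured RNA molecule) on 12 plates, which carry the letters A to L below.

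Cardiac fibroblasts make and turn over the collagen network between the heart muscle cells. After injury or overload part of them become activated: they secrete more matrix, among it periostin and other matricellular proteins, which sit in the matrix and modulate how cells respond to it. When they also build contractile fibres of smooth muscle actin (Acta2) they are called myofibroblasts.

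FB3 cells carried the fibroblast label's markers. In CPM (UMIs scaled to the summed UMIs of a mouse's cells, mitochondrial UMIs included), Dcn (decorin, a collagen-binding proteoglycan) stood between 9131 and 13200 in FB3 of the 6 mice with at least 10 FB3 cells. Col1a1 (a chain of type I collagen) stood between 276 and 565 CPM, and Pdgfra (the platelet-derived growth factor receptor of fibroblasts) between 100.3 and 258 CPM. All 8 genes of the fibroblast marker list had a positive mean log2 ratio of FB3 to the other FB of the same mice (median 0.74), and 4 of 8 had one against other FB of the same plate (median 0.12). Markers of other cell types were low, apart from haemoglobins: FB3 held 75.3 to 204 CPM of 7 macrophage markers, 84.8 to 466 CPM of 7 endothelial markers, 360 to 1652 CPM of 7 cardiomyocyte markers and 0.804 to 30.4 CPM of 5 epicardial or mesothelial markers. The 5 erythroid markers summed to 1549 to 56310 CPM in FB3, against 1532 to 68030 CPM in the other FB, and their part in the results was not tested. The fat cell genes Adipoq and Plin1 were at 0 in FB3 of these mice.

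The 313 cells were unevenly spread over mice and plates. The 0w mice had 3 and 4 FB3 cells and the 2w mice 29 and 32. Of the 5w mice, 1 had 4 FB3 cells and the other 6 had 0. The 8w mice had 2, 35 and 14, and the 11w mice 132 and 58. Of all FB3 cells, 298 lay on 3 plates, D (2w), I (8w) and L (11w). Stage and plate cannot be told apart for the mice rich in FB3, because each of these plates holds mice of 1 stage. The 6 mice with at least 10 FB3 cells (both at 2w, mice 2 and 3 at 8w, both at 11w) hold 300 of the 313 cells and carry every gene result below. The summed FB3 UMIs of a mouse ranged from 534462 to 3732644, and the median UMIs of an FB3 cell from 7593.5 at 11w (mouse 2) to 46104 at 2w (mouse 1). One cell gave 2.95% to 19.4% of a mouse's FB3 UMIs. No cell name occurred in more than 1 library, and doublets were not called.

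The share of FB3 among a mouse's fibroblasts ran from 0% to 41.0%. Among mice with at least 20 FB cells, FB3 made up 2.5% and 2.92% of FB in the 0w mice, 18.1% and 32.3% in the 2w mice and 1.83%, 0% and 0% in the 5w mice. It made up 1.46%, 40.2% and 21.5% in the 8w mice, and 41.0% and 17.2% in the 11w mice. Every mouse at 0w and 5w lay below 3%, every mouse at 2w and 11w lay above 17%, and the 8w mice lay on both sides. The stage mean was 2.71% ± 0.297 for 0w (SD, 2 mice), 25.2% ± 10.0 for 2w (2 mice), 0.612% ± 1.06 for 5w (3 mice), 21.1% ± 19.4 for 8w (3 mice) and 29.1% ± 16.9 for 11w (2 mice). A permutation test of the stage labels over these 12 mice gave p = 0.136. FB3 made up 0 of 20 FB cells on plate A and 7 of 237 on B (0w), and 0 of 13 on C and 61 of 246 on D (2w). It made up 0 of 47 on J and 49 of 105 on I (8w), and 2 of 243 on K and 188 of 417 on L (11w). Of the other FB cells, 129 of 190 in 11w mouse 1 and 100 of 280 in 11w mouse 2 lay on plate L. The shares therefore also depend on how a mouse's FB cells divide over its plates.

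**Figure D1:**
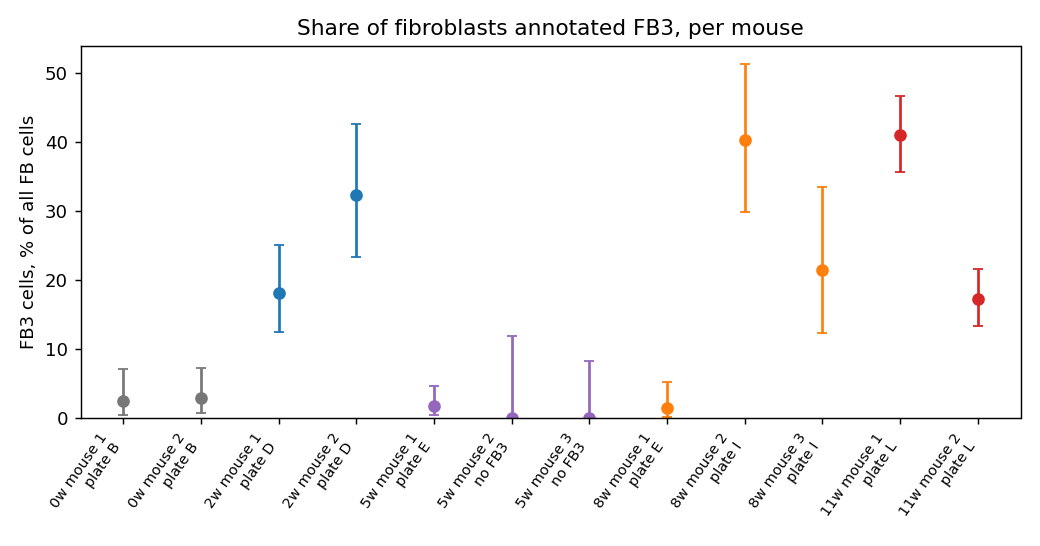
FB3 cells as a percentage of all FB cells in each mouse with at least 20 FB cells, ordered by stage, with the plate that holds most of that mouse's FB3 cells; bars are 95% exact binomial intervals and cover counting error only. The low 8w mouse (1.46%) shares plate E with the low 5w mouse (1.83%), and the other 8w mice (40.2% and 21.5%) were on plate I.

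The mean share was 24.3% ± 16.7 (SD, n = 5) at 8w and 11w and 14.0% ± 14.2 (SD, n = 4) at 0w and 2w, a difference of 10.3 percentage points (exact permutation test, two-sided, p = 0.333). Plate E is the only plate with FB3 cells that mixes stages, and on it the 8w mouse had 1.46% and the 5w mouse 1.83% FB3 among FB, with counting intervals that overlap. Without both mice of plate E the late minus early difference was 16.0 points (p = 0.143, exact permutation test). As a share of all non-cardiomyocytes the differences across stages gave p = 0.0375, and p = 0.0374 without the 3 plates (G, H and K) whose UMI totals differ from the authors' own numbers. In 5w mice 2 and 3 there were 0 FB3 cells of 29 and of 43 FB cells, where 3 counts would be 10.3% and 6.98% and the exact 95% binomial intervals reach up to 11.9% and 8.22%.

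Among the genes higher in FB3 than in the other fibroblasts of the same mice were Postn, Cilp, Vcan and other matrix genes. A subcluster is defined by the expression of its own cells, so the comparison is a description and carries no test. It uses the log2 ratio of CPM plus a pseudocount of 10 in FB3 to that in all other FB of the mouse, and the same ratio with only those other FB that lay on the mouse's FB3 plate. Of 7830 genes with at least 10 CPM, 8 (0.102%) were at least 2-fold higher in FB3 in all 6 mice, and 13 (0.166%) at least 2-fold lower; within the plate the counts were 2 of 8375 (0.0239%) and 0 (0.0%). Leaving out 1 mouse at a time, so that 5 mice had to be at least 2-fold in the same direction, gave 31 to 60 genes in place of these 21. Some shift is general: the median gene had a log2 ratio of 0.32 against all other FB and 0.05 against other FB of the same plate. In each of the 6 mice FB3 had a lower median mitochondrial percentage than the other FB (8.92% to 31.3% in FB3, 15.4% to 60.8% in other FB), and mitochondrial UMIs are part of the CPM total.

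Postn (periostin, the matricellular protein that marks activated fibroblasts) had 1469 and 1638 CPM in FB3 of the 2w mice, 1929 and 4973 CPM in FB3 of the 8w mice and 1370 and 1989 CPM in FB3 of the 11w mice. The other FB had 285 and 417 CPM in the 2w mice, 432 and 615 CPM in the 8w mice and 249 and 890 CPM in the 11w mice. FB3 was above the other FB in all 6 mice, and the lowest FB3 value (1370 CPM) was above the highest of the other FB (890 CPM). The mean log2 ratio was 2.16 ± 0.61 (SD, n = 6), and 2.37 ± 0.85 within the same plate. With every cell thinned to 2000 UMIs, 72.1% of 290 FB3 cells had a Postn UMI, against 33.5% of 418 other FB cells and 12.2% of 377 macrophages of the same plates, a type that should lack it.

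Cilp (cartilage intermediate layer protein, a matrix protein that binds growth factors) had 489 and 693 CPM in FB3 of the 2w mice, 1379 and 790 CPM in FB3 of the 8w mice and 734 and 924 CPM in FB3 of the 11w mice. The other FB had 235 and 144 CPM in the 2w mice, 614 and 441 CPM in the 8w mice and 126 and 297 CPM in the 11w mice. Each mouse had more in FB3, with a mean log2 ratio of 1.54 ± 0.66 and 1.32 ± 0.58 within the plate. In thinned cells the mean ratio was 1.09, and 8w mouse 3 had 1107 CPM in FB3 and 1206 CPM in the other FB. The promoter windows of Postn and Cilp are shown as those of 2 matrix genes that were higher in FB3 in every mouse on all UMIs; they run from 250 bases before to 50 after a RefSeq transcript start (GRCm38.p6, plus strand, 5′ to 3′), at chr3:54360857-54361156 for Postn (the more downstream of 2 listed starts) and chr9:65264930-65265229 for Cilp, with matches to the TATA box motif TATANAA in capitals.
Postn: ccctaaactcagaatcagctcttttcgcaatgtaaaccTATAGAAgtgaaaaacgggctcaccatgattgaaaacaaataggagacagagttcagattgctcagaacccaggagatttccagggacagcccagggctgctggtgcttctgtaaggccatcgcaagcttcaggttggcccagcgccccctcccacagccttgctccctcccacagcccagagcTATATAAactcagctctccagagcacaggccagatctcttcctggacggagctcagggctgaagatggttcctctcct
Cilp: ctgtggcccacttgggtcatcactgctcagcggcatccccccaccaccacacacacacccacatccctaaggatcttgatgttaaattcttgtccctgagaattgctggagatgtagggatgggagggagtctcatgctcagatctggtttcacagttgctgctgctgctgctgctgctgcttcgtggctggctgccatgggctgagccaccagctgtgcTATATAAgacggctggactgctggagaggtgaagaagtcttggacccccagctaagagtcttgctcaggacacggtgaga
Both printed windows hold a TATANAA match shortly before the start, a motif chosen after these letters were seen and present, on either strand, in 11.3% of 32851 such windows. Neither holds the TEAD factor core CATTCC (14.7% of windows) or the AP-1 motif TGANTCA (7.81% of windows), searched on both strands with no overlap between motifs. The window of the other listed Postn start, chr3:54359017-54359316, holds no match to any of the 3 motifs.

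Other genes of secreted matrix proteins were higher in FB3 of every mouse as well. Ltbp2 (a microfibril protein) had 9.38 and 210.2 CPM in FB3 of the 2w mice, 1271 and 859 CPM in FB3 of the 8w mice and 276 and 540 CPM in FB3 of the 11w mice. The other FB had 4.6 and 19.0 CPM in the 2w mice, 57.1 and 171 CPM in the 8w mice and 41.5 and 307 CPM in the 11w mice. FB3 was higher in each mouse, by a mean log2 ratio of 2.19 ± 1.42, but the groups overlap across mice, from 9.38 CPM in FB3 of 2w mouse 1 to 307 CPM in the other FB of 11w mouse 2. Cst6 (cystatin E/M, a secreted inhibitor of cysteine proteases) had the highest mean ratio of the named genes, 2.75 ± 1.27 against all other FB and 2.41 ± 1.31 within the plate. It rests on few cells in some mice. In thinned cells a Cst6 UMI was seen in 5 of 29 and 10 of 31 FB3 cells of the 2w mice. The counts were 3 of 35 and 1 of 14 in 8w mice 2 and 3, and 38 of 127 and 18 of 56 in the 11w mice. Vcan (versican, a large proteoglycan of provisional matrix) had 427 to 1284 CPM in FB3 and 130.1 to 340 CPM in the other FB, with a log2 ratio of 1.89 ± 0.43 and no overlap between the groups. Col8a1 (a short-chain collagen) had 868 to 1720 CPM in FB3 and 207 to 558 CPM in the other FB, again with no overlap. Meox1, a homeobox factor known from fibroblast activation, had 129 to 312 CPM in FB3 and 20.6 to 91.4 CPM in the other FB, with a log2 ratio of 1.72 ± 0.60.

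Some of the highest ratios came from genes outside the matrix lists and were smaller once cells were thinned to equal UMIs. For Eapp and Psma2 (a proteasome subunit) the log2 ratio was 0.59 and 0.84 in thinned cells, against 2.04 and 1.93 on all UMIs. Postn had 1.72, Cst6 2.09 and Ltbp2 1.78 in thinned cells.

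**Figure D2:**
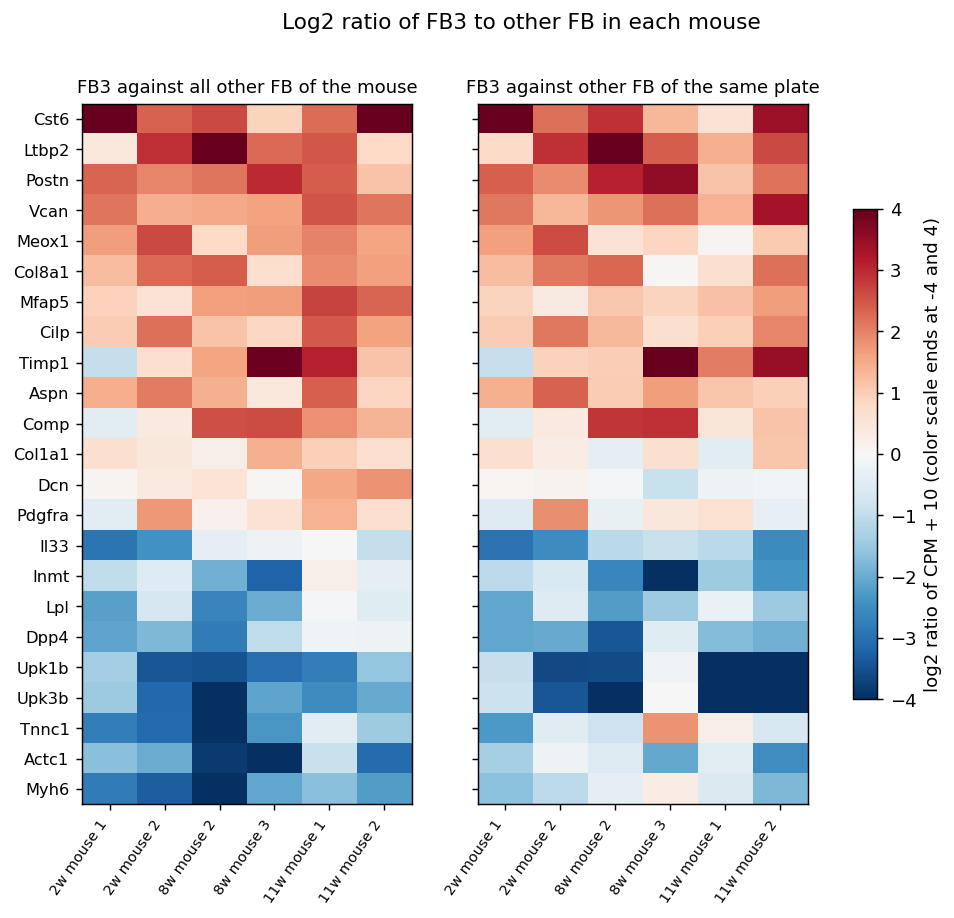
Log2 ratio of FB3 to other FB for selected genes, most of them named in the text, 1 column per mouse, against all other FB (left) and against other FB of the same plate (right); red is higher and blue lower in FB3. Postn, Vcan and Cilp are red in all 12 squares, whereas the cardiomyocyte genes at the bottom (Tnnc1, Actc1, Myh6) fade on the right.

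Of the 25 gene lists, the collagens had the highest median against all other FB. Of 18 collagen genes, 17 had a positive mean log2 ratio in both comparisons, 7 were higher in every mouse against all other FB and 3 within the plate, and their median was 0.85, and 0.51 within the plate. The counts of every mouse stand beside 5.26% of all genes higher in FB3 of every mouse (1.78% within the plate) and 1.8% lower (2.34% within the plate). The share of all genes with a positive mean ratio was not counted. As the median gene was at 0.32, and 0.05 within the plate, most genes were positive. The counts of positive genes in the lists, markers included, therefore have no such share to be read against. Of 16 matricellular genes at 10 CPM, 15 had a positive mean ratio with a median of 0.76, and 13 with a median of 0.67 within the plate. Spp1 (osteopontin) had the highest mean in that list, 2.37 ± 1.95, but was at 0 to 6.01 CPM in FB3 at 2w and reached 997 CPM in 11w mouse 2. Of 23 cytoskeleton and adhesion genes, 22 had a positive mean ratio, with a median of 0.81, and 19 with a median of 0.32 within the plate; Lgals1 (galectin-1) led the genes higher in every mouse in both comparisons.

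Some lists lost their shift within the plate. The 10 small leucine-rich proteoglycans had a median of 0.78 against all other FB and -0.001 within the plate, where 5 of 10 were positive. Dcn was 0.74 ± 0.75 against all other FB and -0.18 ± 0.37 within the plate. Aspn (asporin) kept its ratio, 1.44 ± 0.72 and 1.42 ± 0.53, with 6 of 6 mice higher each time. The 14 elastic fibre genes had medians of 0.61 and 0.16, and the microfibril genes Fbn1 (fibrillin-1) and Mfap5 were higher in all 6 mice in both comparisons.

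Genes of the contractile myofibroblast were less uniform against all other FB of the mouse. Acta2 had 3.66 to 59.9 CPM in FB3, against 1.06 to 27.0 CPM in the other FB, and its log2 ratio had both signs over mice (0.49 ± 1.06, 4 of 6 mice higher). Of 14 myofibroblast genes at 10 CPM, 12 had a positive mean ratio (median 0.46), 2 were higher in every mouse and Tpm1 was lower in every mouse. Vcl (vinculin) and Meox1 were the 2 that were higher in every mouse, and both also were so within the plate. Within the plate 12 of 14 had a positive mean ratio (median 0.42), 4 were higher in every mouse and 0 were lower in every mouse. In thinned cells Meox1 was not higher in every mouse, with 71.4 CPM in FB3 and 153.8 CPM in the other FB of 8w mouse 2. Cthrc1, a secreted collagen-modifying protein of activated fibroblasts, had 0.536 to 149 CPM in FB3 and 0 to 60.0 CPM in the other FB, and Wif1, a Wnt inhibitor, was at 0 in FB3.

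Genes of resting and adventitial fibroblasts went both ways. Lpl (lipoprotein lipase) had 93.5 to 379 CPM in FB3 and 167 to 865 CPM in the other FB, with a log2 ratio of -1.34 ± 1.05 and lower values in FB3 of every mouse. Il33, an alarmin cytokine, was lower in every mouse (-1.16 ± 1.23, and -1.84 ± 0.93 within the plate). Dpp4, a surface peptidase of adventitial progenitors, was also lower in every mouse (-1.35 ± 1.06), whereas Pi16, another adventitial marker, was higher in 5 of 6 (1.16 ± 1.01). Of 19 resting fibroblast genes, 15 had a positive mean ratio against all other FB and 6 within the plate, with medians of 0.46 and -0.17. The complement list had a median of -0.21, and -0.55 within the plate, with 4 and 2 of 9 genes positive; C3 had 138 to 713 CPM in FB3 and 290 to 1548 CPM in the other FB, and its ratio had both signs (-1.01 ± 1.59).

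The genes lowest in FB3 mark other cells. Of the 12 lowest, 10 are cardiomyocyte genes, among them Myh6 (the adult heart myosin) with a log2 ratio of -2.75 ± 1.01, which was -0.85 ± 0.80 within the plate. The 7 cardiomyocyte markers summed to 360 to 1652 CPM in FB3, 1338 to 8002 CPM in all other FB and 666 to 2686 CPM in other FB of the same plate, so the gap was smaller within the plate. The other 2 are the mesothelial genes Upk1b and Upk3b, at 0 to 4.88 CPM in FB3 and 16.2 to 168 CPM in the other FB, with log2 ratios of -2.60 ± 0.93 and -2.55 ± 0.93. They stayed low within the plate, at -2.83 and -2.92, and Upk3b was highest in subcluster FB9 (1740 CPM in thinned cells).

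**Figure D3:**
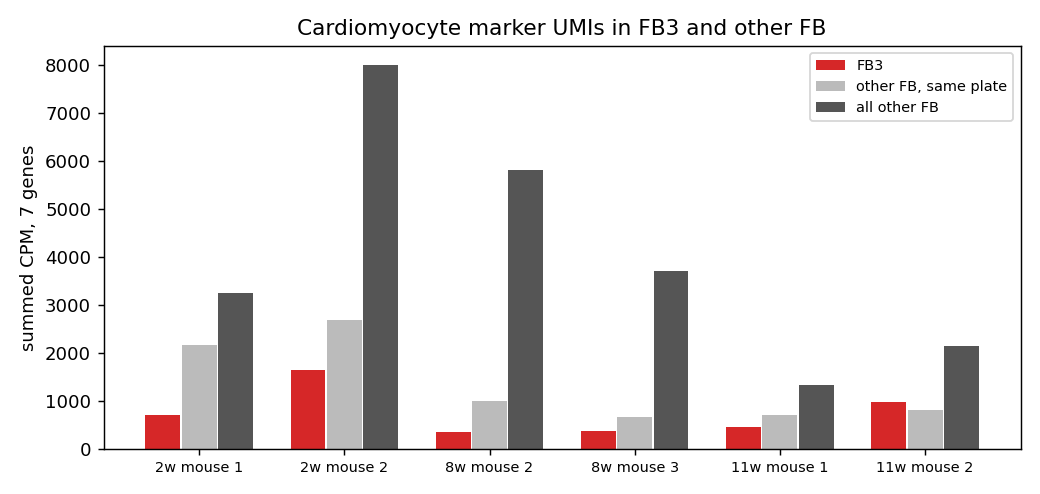
Summed CPM of 7 cardiomyocyte markers in FB3, in other FB of the same plate and in all other FB, per mouse. FB3 is below all other FB in each of the 6 mice, and the gap is smaller on the same plate, where 11w mouse 2 has 969 CPM in FB3 and 805 CPM in the other FB.

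Among the other 9 subclusters, FB6 was next to FB3 in pooled Postn, and FB2 had the highest correlation with it over all genes. With cells thinned to 2000 UMIs and pooled over mice, Postn was highest in FB3 (2259 CPM), followed by FB6 (1884), FB10 (1189), FB8 (907), FB7 (622), FB2 (332), FB1 (234), FB5 (195), FB9 (135) and FB4 (125). In single mice FB3 ranged from 1870 to 4286 and FB6 from 500.0 to 2868, so the 2 overlap. Within 11w mouse 2 the order turns, with 2500.0 CPM in FB3 and 2831 in FB6. Pooled Cilp was at 1330 CPM in FB3 and 884 in FB6. Its order turned in 8w mouse 3, with 1107 CPM in FB3 and 2289 in FB6. In 2w mouse 1 and both 11w mice Cilp was higher in FB3. Timp1, an inhibitor of matrix metalloproteinases, was at 1039 CPM in FB3 and 923 in FB6, and Comp, a thrombospondin family protein, was at 377 CPM in each. Cst6 was at 579 CPM in FB3 and 116 in FB6. Some other matrix genes were higher in FB6 when pooled. Ltbp2 had 464 CPM in FB3 and 526 in FB6, and Cthrc1 had 57.4 in FB3 and 100.0 in FB6. Thbs4 (a thrombospondin), at 247.5 in FB3, was also higher in pooled FB6. In single mice the order of these genes varied. Ltbp2 was higher in FB3 in 2w mouse 1, 8w mouse 3 (1250 and 974 CPM) and 11w mouse 1 (382 and 80.7 CPM). It was higher in FB6 in 11w mouse 2 (750 and 923 CPM). Cthrc1 was slightly higher in FB3 in both 11w mice, and higher in FB6 in 8w mouse 3. Across 7142 genes the correlation of log levels with FB3 was 0.903 for FB2, 0.889 for FB4 and 0.854 for FB6, values that depend on the number of cells pooled (345, 376 and 156) and on shared plates.

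**Figure D4:**
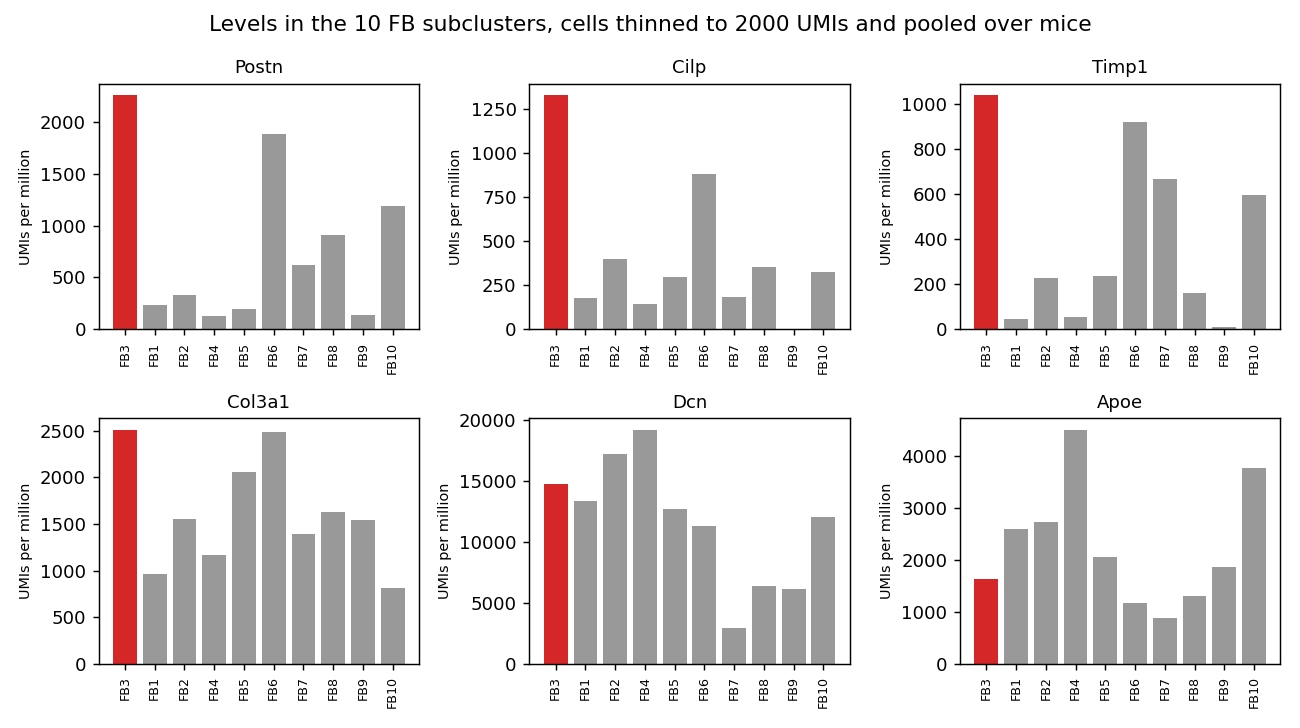
Levels of 6 genes in the 10 FB subclusters (FB3 in red, first), in CPM after thinning each cell to 2000 UMIs and pooling over mice, with no error bars because mice are pooled. Postn, Cilp and Timp1 peak in FB3 with FB6 next, Col3a1 is as high in FB6, and Dcn and Apoe (a lipid carrier, chosen after its values were seen) peak in FB4.

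The Postn level outside FB3 was higher in the mice with many FB3 cells, among mice with at least 20 FB cells. In thinned cells the other FB had 71.4 to 77.6 CPM at 0w, 63.1, 190 and 105 in 5w mice 1, 2 and 3, and 130.6 in 8w mouse 1. They had 373 and 412 in the 2w mice, 769 and 1686 in 8w mice 2 and 3, and 798 and 1300.0 in the 11w mice. These 2 sets of mice, which were formed by their FB3 share, do not overlap in that level. No plate holds mice of both sets, so the FB3 share cannot be told apart from plate here. The share of all genes that separate the sets was not counted. In the same cells Cilp did not overlap either. Timp1 did (224 CPM in 5w mouse 2 and 223 CPM in 2w mouse 1), as did Col8a1 (741 CPM in 5w mouse 2 and 365 CPM in 8w mouse 2).

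Within FB3, the late stages (8w and 11w, 4 mice) were set against 2w (2 mice). No mouse at 0w or 5w had 10 FB3 cells, so the early side is 2w alone. By edgeR's quasi-likelihood test on UMI sums per mouse, 0 of 9017 genes passed a Benjamini-Hochberg adjusted p of 0.05 (0.0%); 957 genes (10.6%) had an unadjusted p under 0.05. DESeq2 on the same sums called 305 genes, 200 of them higher at the late stages, and edgeR without 2w mouse 2 called 16. Fold changes below are therefore given as values, on TMM-scaled CPM, beside a median over all genes of -0.29 (log2). The median FB3 cell had 31938 and 30835.5 UMIs in the 8w mice and 10546.5 and 7593.5 in the 11w mice, and 46104 and 39217.5 in the 2w mice. The 7 cardiomyocyte markers summed to 360 to 969 CPM in FB3 of the late mice, and to 700.0 and 1652 CPM in FB3 of the 2w mice. The part of either in these differences was not tested.

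Several secreted genes had levels that did not overlap between the stages. With 4 mice against 2, an unchanged gene can also separate by the order of the mice alone. This holds for the genes lower at the late stages too, and the share of all tested genes that separate was not counted. Comp had 482 and 672 CPM in the 8w mice and 178 and 428 CPM in the 11w mice, and the 2w mice had 0 and 3.73 CPM. Its log2 fold change was 7.74 ± 1.38 (SE; edgeR adjusted p = 0.457), it was among the DESeq2 calls, and the 2w sums held 0 and 11 Comp UMIs. By edgeR the fold change was 12.41 without 2w mouse 2 (adjusted p = 0.00531), 6.80 without 2w mouse 1 (adjusted p = 0.0598) and 5.05 in thinned cells (adjusted p = 0.041). Timp1 had 773 and 984 CPM in the 8w mice and 742 and 1827 CPM in the 11w mice, and the 2w mice had 244 and 466 CPM, again with no overlap (1.58 ± 0.53, edgeR adjusted p = 0.457).

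The interstitial collagen Col3a1 had 1428 and 381 CPM in the 8w mice and 840 and 2141 CPM in the 11w mice, and the 2w mice had 4403 and 5648 CPM. Every late mouse was below both 2w mice, with a log2 fold change of -2.11 ± 0.53 (edgeR adjusted p = 0.457). In thinned FB3 cells the stages overlapped, with 3527 CPM in 11w mouse 2 and 3403 CPM in 2w mouse 2. A level lower late than at 2w was also seen in FB2. Thinned FB2 cells had 2810 and 3143 CPM in the 2w mice, and every late mouse was lower. Among these, 11w mouse 2 had 2000 CPM, 8w mouse 2 had 1571 CPM and 11w mouse 1 had 892 CPM. FB2 was also lower at 0w (1297 and 658.5 CPM) and in 5w mouse 1 (1100 CPM), so its 2w mice stood above the mice before and after. Thinned FB6 cells had 3800 CPM in 2w mouse 1 (10 cells), 1211 CPM in 8w mouse 3, and 2726 and 3192 CPM in the 11w mice. In FB3, Sparc (osteonectin, a collagen chaperone in the matrix) and Fbn1 were lower in every late mouse as well, at -1.42 ± 0.42 and -1.45 ± 0.46. Of 18 collagens tested, 14 had a negative log2 fold change with a median of -0.88, 7 had an unadjusted p under 0.05 and 0 passed the adjusted threshold. The chemokine Ccl2, which draws monocytes, had 3761 and 4917 CPM in the 8w mice and 879 and 213 CPM in the 11w mice, and the 2w mice had 5538 and 5348 CPM (-1.82 ± 0.48). Cxcl1, which draws neutrophils, was likewise lower in every late mouse, at -1.56 ± 0.42. Whether the changes in Sparc, Fbn1, Ccl2 and Cxcl1 are particular to FB3 is not shown by these values.

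**Figure D5:**
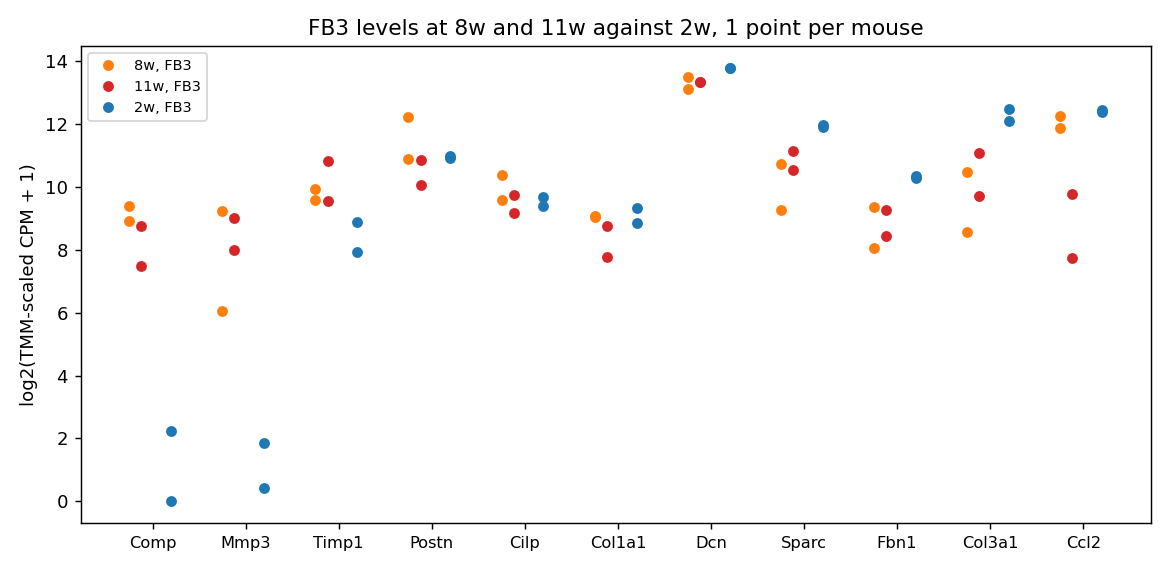
Levels in FB3 on a log2(TMM-scaled CPM + 1) axis, 1 point per mouse, with 8w and 11w left of 2w for each gene. Comp, Mmp3 and Timp1 lie higher in all 4 late mice, Sparc, Fbn1, Col3a1 and Ccl2 lower, and Postn and Cilp overlap between the stages.

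For Postn and Cilp the late and the 2w values overlapped. Postn had 1873 and 4775 CPM in the 8w mice and 1070 and 1839 CPM in the 11w mice, and the 2w mice had 2016 and 1941 CPM (log2 fold change 0.15 ± 0.44), and Cilp had a fold change of 0.21 ± 0.42. Both signs turn under some alternatives. Whether the late minus 2w change in FB3 differed from that in the other FB of the same mice was tested as an interaction with the mouse as a block: 0 of 11996 genes passed (0.0%), 612 (5.1%) had an unadjusted p under 0.05, and DESeq2 called 144; without 8w mouse 2 edgeR called 10. Mmp3 (stromelysin-1, a matrix metalloproteinase) had a difference of 5.73 ± 1.24 on the log2 scale (edgeR adjusted p = 0.388) and was among the DESeq2 calls. Its late minus 2w change in FB3 was 7.88 ± 1.43, with 65.2 to 595 CPM in the late mice, against 2.57 and 0.339 CPM at 2w, where the sums held 7 and 1 UMIs. Comp's interaction was 1.55 ± 2.02 and Postn's -0.95 ± 0.60, neither past the threshold. On simulated data the interaction fit found 0 of 100 genes changed by 2 and 17 of 100 changed by 4 on the log2 scale. It thus misses most changes of that size.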

How the data were processed

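The authors deposited counts of UMIs per gene and cell, raw and in whole numbers, beside an annotation of mouse, type and subcluster for every cell. The submitters' processing notes list STAR (2.5.2b), featureCounts, Subread (1.4.6-p1) and the builds mm10 and GRCh37, without saying what each was used for, how strand was treated or how UMIs were collapsed. Overlapping genes and close paralogs may share UMIs.

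FB3 cells were taken as annotated, with no further filter. Counts were summed per mouse, and mice with at least 10 FB3 cells and 10 other FB cells entered the gene comparisons; p-values measure the spread between these mice. Sums were fitted with edgeR 4.0.16 in R 4.3.3 (filterByExpr, TMM, robust quasi-likelihood, two-sided); DESeq2 1.42.0 was an alternative. Ratios to other FB used CPM of all UMIs plus 10; shares were compared by permutation (100000) or exactly (126 arrangements) in Python 3.11.15 with scipy 1.17.1. Thinning drew 2000 non-mitochondrial UMIs per cell. On plates D, I and L, 290 of 298 FB3 cells, 418 of 470 other FB cells and 377 of 382 macrophages were deep enough. Thinned ratios and levels used the cells of all plates. There the loss was most uneven in 11w mouse 2, where 56 of 58 FB3 cells and 213 of 280 other FB cells were kept. On simulated data the late against 2w fit recovered 1 of 99 genes changed by 2 and 41 of 92 changed by 4 on the log2 scale, with 2 false calls. The interaction fit recovered 0 of 100 and 17 of 100, with 0 false calls. The contrasts that involve 5w had no mouse with enough FB3 cells and were not run.

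Named genes were the 12 highest and 12 lowest by mean ratio, with 1 sign in every mouse at 50 CPM or more (predicted, mitochondrial and ribosomal protein genes left out), up to 4 members of each of 25 gene lists, and 16 fixed genes; some genes that this rule names are not reported here. The members, lists and rule were chosen with earlier results of these data known.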

Additional observations from a re-analysis of the deposited data

Results flagged for a closer look

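A few values of single mice stood far from those of the other 5 (a gap over range above 0.625 for 6 values, which chance gives about once in 20 groups). Of 38 genes of the naming rule checked, 3 had such a mouse, a number near the rate that chance gives. The log2 ratio of Psma2, a proteasome subunit, was 3.76 in 8w mouse 3, against 1.38 to 1.79 in the other mice. The ratio of Fos, an immediate early gene, was -2.79 in 2w mouse 2, against 0.23 to 1.28 in the others. The ratio of Cthrc1 was -1.35 in 2w mouse 1, against 0.54 to 1.19 in the others, with 0.536 CPM in FB3 and 16.8 CPM in the other FB of that mouse.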

How the results depend on the processing

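By permutation test across stages, the share of FB3 passed 0.05 as a share of all non-cardiomyocytes (p = 0.0375) and without the plates whose totals differ (p = 0.0374), against p = 0.136, and the cause was not tested; leaving out 1 mouse gave p = 0.0579 to 0.246. The counts of genes also moved. Late against 2w in FB3, 0 by edgeR, became 305 with DESeq2, 147 with no low-count filter, 1 without mitochondrial genes, 5 with thinned cells and 0 to 16 without 1 mouse. The difference of that change between FB3 and other FB, also 0, became 144, 18 and 2 with DESeq2, no filter and thinned cells, and 0 to 10 without 1 mouse. The 21 genes at 2-fold in every mouse became 70 with a pseudocount of 1 CPM, 8 with 50 CPM, 36 with at least 20 cells, 37 with CPM free of mitochondrial UMIs, 9 without the plates whose totals differ, 2 within the plate and 31 to 60 without 1 mouse.

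Signs turned for a few genes. Postn in FB3, late against 2w, was -0.044 with no filter, -0.26 with at least 20 cells and -0.26 to 0.42 without 1 mouse. Cilp was -0.012 in thinned cells and -0.013 to 0.42 without 1 mouse. Within the plate the ratio to other FB was -0.18 for Dcn and 0.086 for Nppb. Of 225 alternative values for the late against 2w change of named genes, 19 passed the threshold that the reported fit did not, and 7 turned sign. Replicate numbers did not pair the mice (correlation of same-numbered deviations from -0.0225 to -0.00466); with the number as a block the share gave p = 0.254 across stages and p = 0.389 for late against early (permutation), 0 genes passed late against 2w, and Postn was -0.39. The thinned, within-plate and plate E alternatives were chosen after seeing the data. The contrasts with 5w could not be fitted. Depth limits the 11w mice most, whose median FB3 cell had 7593.5 and 10546.5 UMIs.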
